A study of Mus musculus with 16 samples.

Results

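The genes described here are those whose level in the lactating mouse mammary gland moved with a high fat diet in the same way in glands of untreated and of metformin-treated mice. They were found by comparing 8 libraries from the high fat diet with 8 from the control diet, with metformin as a term in the fit, which takes in all 16 libraries of the series. A gene was said to move alike where its diet effect averaged over both treatments passed the test, where the effects without and with metformin had the same sign with an unadjusted p under 0.05 each, and where the difference between these effects had an unadjusted p of 0.05 or more. Of 12506 genes tested, 117 passed for the averaged effect and 76 of these moved alike, 32 higher and 44 lower on the high fat diet.

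RNA came from whole inguinal mammary gland, at mid-lactation according to the series title. The age label reads postnatal day 16 without saying whose days are counted. The 4 groups of 4 libraries were NCD control, NCD metformin, HFD control and HFD metformin, where HFD is the high fat diet given in lactation and NCD, which the labels do not expand, is read here as chow. Metformin is a drug that lowers blood glucose. The sources used here give no dose, route, mouse strain or diet composition. They also do not state that each library came from a separate animal, so p-values measure only how far these samples spread, and that spread may be technical. A whole gland holds milk-secreting epithelium, myoepithelium, stroma, vessels, immune cells and fat.

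Libraries held 8649316 (HFD control 4) to 39156617 counts over genes (median 28944266). Milk protein genes, which define lactating tissue, took 70.1 to 76.7% of the counts of each library. Skeletal muscle markers (16 of 19 tested) summed to 4862 CPM (counts scaled to a common library total) in NCD control 3 and to at most 183 CPM in the HFD metformin group, 36.4 CPM in the NCD metformin group and 26.1 CPM in the HFD control group. The sample numbers in the titles leave a gap between 10 and 14, below which lie 5 of 8 NCD and 2 of 8 HFD libraries. The labels do not call this a batch. All 76 genes that moved alike kept their direction when the diets were compared within the numbers up to 10 and within those from 14 up. These genes were chosen on the same libraries, so a kept direction was largely set in advance and is a description. With a term for the gap, 48 of the 76 still passed.

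As background, the lactating gland makes milk proteins under prolactin and STAT5 signalling, and it makes milk fat both by synthesis within the epithelial cell, which takes NADPH from the pentose phosphate pathway and malic enzyme, and by taking up fatty acids from blood. When dietary fat is plentiful, uptake of preformed fatty acids can take the place of synthesis. Xenobiotic enzymes of the gland are under the aryl hydrocarbon receptor, which induces Cyp1a1, and under NRF2, which acts on antioxidant response elements of genes for glutathione transferases and NADPH enzymes.

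The diet effect averaged over treatments called 117 genes (0.936% of those tested) in the quasi-likelihood test of edgeR after Benjamini-Hochberg adjustment, 65 higher on HFD (0.52%) and 52 lower (0.416%), and 2174 genes had an unadjusted p under 0.05 (17.4%). The shares called higher and lower are the background for the counts of called genes in the lists below. The 76 that moved alike (0.608%) held 84.6% of the called lower genes (44, or 0.352% of those tested) and 49.2% of the called higher ones (32, or 0.256%). Their median log2 fold change, in absolute size, was 0.72 without and 0.76 with metformin, and the median absolute difference between these effects was 0.25. Averaged log2 fold changes of these 76 ran from 0.33 to 5.28 in absolute size, and 28 of them, 10 higher and 18 lower, reached at least 1. These sizes and the shared sign follow in part from how the genes were chosen and are a description. The 95% interval of the difference lay within the size of the averaged effect for 21 of the 76, and for the rest the data leave room for a difference as large as the effect.

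The effects without and with metformin come from different libraries, so genes chosen in the metformin pair can be read in the control pair, although the estimate of spread was shared. With metformin 295 genes were called (2.36%), 232 higher (1.86%) and 63 lower (0.504%). Of the 63 lower ones, 22 (34.9%) were also lower without metformin at an unadjusted p under 0.05, where 3.94% of all genes were. Of the 232 higher ones, 13 (5.6%) were also higher without metformin, where 3.1% of all genes were. Without metformin 8 genes were called (0.064%), 2 higher (0.016%) and 6 lower (0.048%), and 881 had an unadjusted p under 0.05 (7.04%). All 8 had the same sign with metformin, and 6 of them an unadjusted p under 0.05 there. At an unadjusted p under 0.05 in both treatments, 106 genes were lower in both, which is 11.9% of the 893 lower with metformin and 21.5% of the 493 lower without, beside backgrounds of 3.94% and 7.14%. The 89 genes higher in both were 5.88% of the 1514 higher with metformin and 22.9% of the 388 higher without, beside 3.1% and 12.1%. Scaling by library size alone turned the balance: 15 genes were then higher and 765 lower in both, out of 630 higher and 2758 lower with metformin and 89 higher and 1894 lower without. No gene was called for the difference between the diet effects (0%), while 1243 had an unadjusted p under 0.05 (9.94%) and DESeq2 called 23. Across all genes the correlation of the diet effects was low, with Pearson's r of 0.088 and a Spearman correlation of 0.18 over 12506 genes. Without NCD control 3 these values were 0.171 and 0.17, and with a term for the gap in title numbers 0.188 and 0.242. Genes are not independent replicates, so these correlations are given as a description. Of the 12506 genes 7076 had the same sign in both treatments. For the averaged effect 6239 were positive and 6267 negative, which is the background for the sign counts of the lists below.

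**Figure D1:**
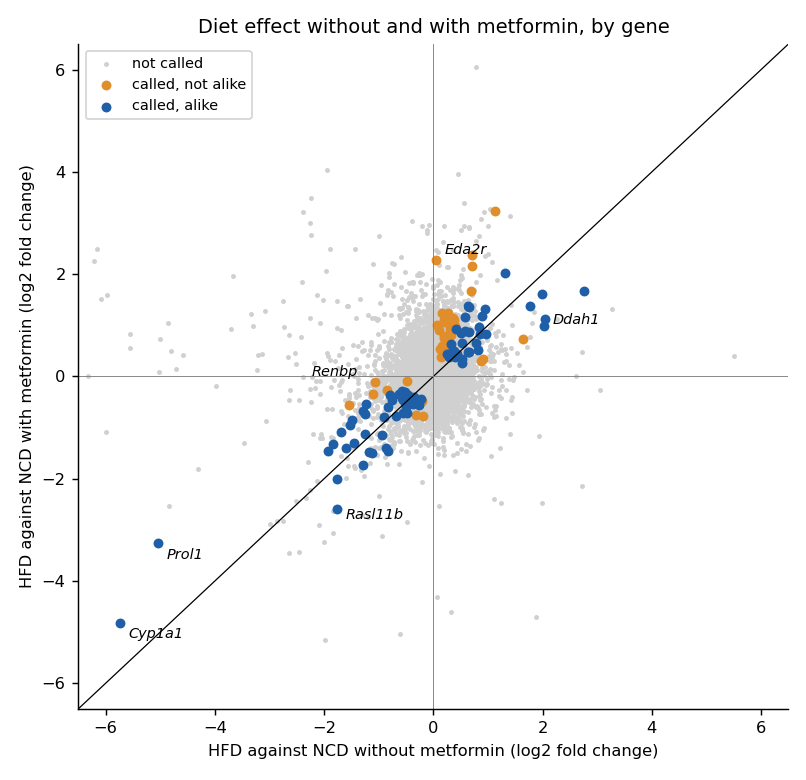
Diet effect (log2 fold change, HFD against NCD) without metformin on the horizontal axis and with metformin on the vertical axis, 1 point per gene, with the line of equal effects. The 76 called genes that moved alike (blue) lie along the line, with Cyp1a1 and Prol1 at the lower left and Ddah1 and, further out, Gabbr2 at the right. The 41 called genes that did not (orange) lie mostly above the line near 0 on the horizontal axis. Outside the axes, which end at 6.5, fall 15 genes.

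These counts moved with the libraries entered. Without 1 library, the diet effect averaged over treatments called 28 (HFD control 3), 30 (NCD metformin 3), 50 (NCD control 2), 52 (HFD control 4), 57 (HFD metformin 2), 58 (NCD metformin 1), 59 (NCD control 4), 62 (NCD metformin 2), 69 (HFD metformin 1) or 180 genes (NCD metformin 4), against 117, and the number that moved alike was 24, 25, 40, 43, 45, 38, 46, 53, 57 and 92 in the same order, against 76. The 295 calls with metformin fell to 3 without HFD metformin 2, 4 without NCD metformin 2, and 5 without HFD metformin 1 or NCD metformin 3, to 97 without HFD metformin 4, 107 without HFD control 3, 116 without NCD control 2, 177 without NCD metformin 1 and 181 without HFD control 2. The 8 calls without metformin fell to 2 without HFD control 3, 3 without HFD control 1, 4 without NCD control 1, NCD control 2 or NCD metformin 1, and 5 without NCD control 3 or NCD metformin 2, and rose to 13 without NCD metformin 3. Without NCD control 4, 1 gene was called for the difference. Scaling by library size alone called 1595 genes (49 higher, 1546 lower) and shifted the all-gene median from -0.0005 to -0.17 on the log2 scale, and counts rebuilt from TPM called 35 (13 higher, 22 lower). No called gene changed sign under any setting tried, but every setting reused libraries on which the genes were called. Of the 117, 21 kept their call in every setting of scaling, filter, tool or libraries in which they were tested, and 20 of these moved alike. There were 27 such settings, and 26 for Gabbr2, which was not tested in counts rebuilt from TPM. Among the 20 were Adig, Agt, Aldh2, Bdh1, Chil1, Cyp1a1, Ddah1, Fam189a2, Gabbr2, Gsta4, Paox, Pgd, Prol1, Rasl11b, Scnn1b, Serpina11, Slc39a4, Tapbpl and Tkt.

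In 14 called genes, all of which moved alike, every HFD library lay on the same side of every NCD library. Over all genes 17 did so (0.136%). Within 1 treatment, 4 libraries against 4, the diets did not overlap for 515 of all genes without metformin (4.12%) and 1275 with it (10.2%). The 4 higher genes were Ddah1, Scnn1b, Pdgfd and Man2b1. Among the 10 lower ones were Cyp1a1, Adig, Slc39a4, Tm7sf2, Tapbpl, Pgd, Tkt, Aldh2 and Bcl2l15. Several of these, and the genes named for keeping their call, fall outside the rule for named genes and were picked after their values were seen.

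Cyp1a1, a cytochrome P450 that oxidises aromatic foreign compounds, showed the largest change. Libraries of NCD control had 2.42, 0.878, 1.91 and 2.12 CPM and those of NCD metformin 3.81, 2.81, 3.09 and 1.97 CPM. On HFD the control libraries had 0.0268, 0.0873, 0 and 0 CPM and the metformin libraries 0.308, 0.0965, 0 and 0.0727 CPM. Of the 8 HFD libraries 7 were at or under the floor of 3 counts, and 3 of them at 0, while no NCD library was, and the diets did not overlap. Over the 8 HFD libraries there were 12 counts against 598 over the 8 NCD libraries, a ratio of 2.66% after allowing for the totals (95% exact counting interval 1.36 to 4.67%). The fitted log2 fold change was -5.28 ± 0.44 (SE, adjusted p = 1.67e-05), -5.74 without and -4.82 with metformin, and the 95% interval of the difference was -1.19 to 3.03. At these counts the fitted fold depends on the prior count, and the ratio of counts is the better guide. On GRCm38 the gene (ENSMUSG00000032315.6, chromosome 9 from 57687928 to 57703824, plus strand) has its promoter window printed with those of the transferases.

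Of 7 tested genes of the aryl hydrocarbon receptor list, Cyp1a1 was the only called lower gene and Ahr, the receptor itself, the only called higher one (log2 fold change 0.61 ± 0.14 SE, adjusted p = 0.0454). Ahr did not move alike, at 0.30 without and 0.92 with metformin, and its call was lost in 19 of 26 settings. With a library left out it held only without NCD metformin 4, HFD control 1 or HFD metformin 3. The list's median was -0.07, beside -0.0005 over all genes. Arnt, the partner of the receptor, was at 0.00, Tiparp, another target, at 0.35 and Nqo1, a target of this receptor and of NRF2, at -0.07, and none of these passed.

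Agt, the precursor from which angiotensins are cut, was higher, at 95.3 to 141 CPM in NCD control against 162 to 197 in HFD control and 168 to 210.4 in NCD metformin against 194 to 288 in HFD metformin. Its log2 fold change was 0.55 ± 0.10 (SE, adjusted p = 0.0178), and the libraries of each treatment overlapped only between the metformin groups.

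Transporters and channels of the epithelium included a pair of genes with no overlap between diets. Slc39a4, which encodes the zinc importer ZIP4, was at 4.96, 4.85, 4.63 and 6.95 CPM in NCD control and 1.45, 2.4, 1.42 and 1.9 in HFD control. With metformin it was at 3.54, 3.14, 5.97 and 2.56 CPM on NCD and 2.08, 2.03, 0.716 and 1.02 on HFD. The fall was -1.60 without and -1.40 with metformin on the log2 scale (average -1.50 ± 0.23 SE, adjusted p = 0.00959, 95% interval of the difference -0.77 to 1.16). Scnn1b, the beta subunit of the epithelial sodium channel, was at 14.6, 14.5, 13.8 and 16.7 CPM in NCD control and 23.1, 24.2, 26.2 and 20.4 in HFD control. With metformin it was at 14.9, 12.7, 17 and 16.1 CPM on NCD and 23.2, 20.3, 22.3 and 19.4 on HFD. It rose by 0.66 and 0.49 on the log2 scale (average 0.57 ± 0.08 SE, adjusted p = 0.00323, 95% interval of the difference -0.50 to 0.15), a small change with a narrow spread. Scnn1b was the only called gene among 25 tested genes of ion and water transport, whose median was 0.10. Scnn1g, the gamma subunit of the same channel, was at 0.34 and did not pass.

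After Cyp1a1, the largest fall was that of Prol1, a gene for a proline-rich protein of secretions. NCD control libraries had 124, 57.9, 130.3 and 228 CPM and HFD control libraries 6.81, 2.27, 4.14 and 2.46. NCD metformin libraries had 28.7, 3.24, 17.4 and 5.47 CPM and HFD metformin libraries 3.85, 0.804, 0.984 and 0.8. The diets did not overlap without metformin, whereas with metformin the highest HFD library lay above the lowest NCD library. On chow, every metformin library lay below every control library. The log2 fold change was -4.15 ± 0.49 (SE, adjusted p = 0.000997), -5.04 without and -3.26 with metformin, and the interval of the difference, -0.22 to 3.78, leaves room for a larger fall without the drug.

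**Figure D2:**
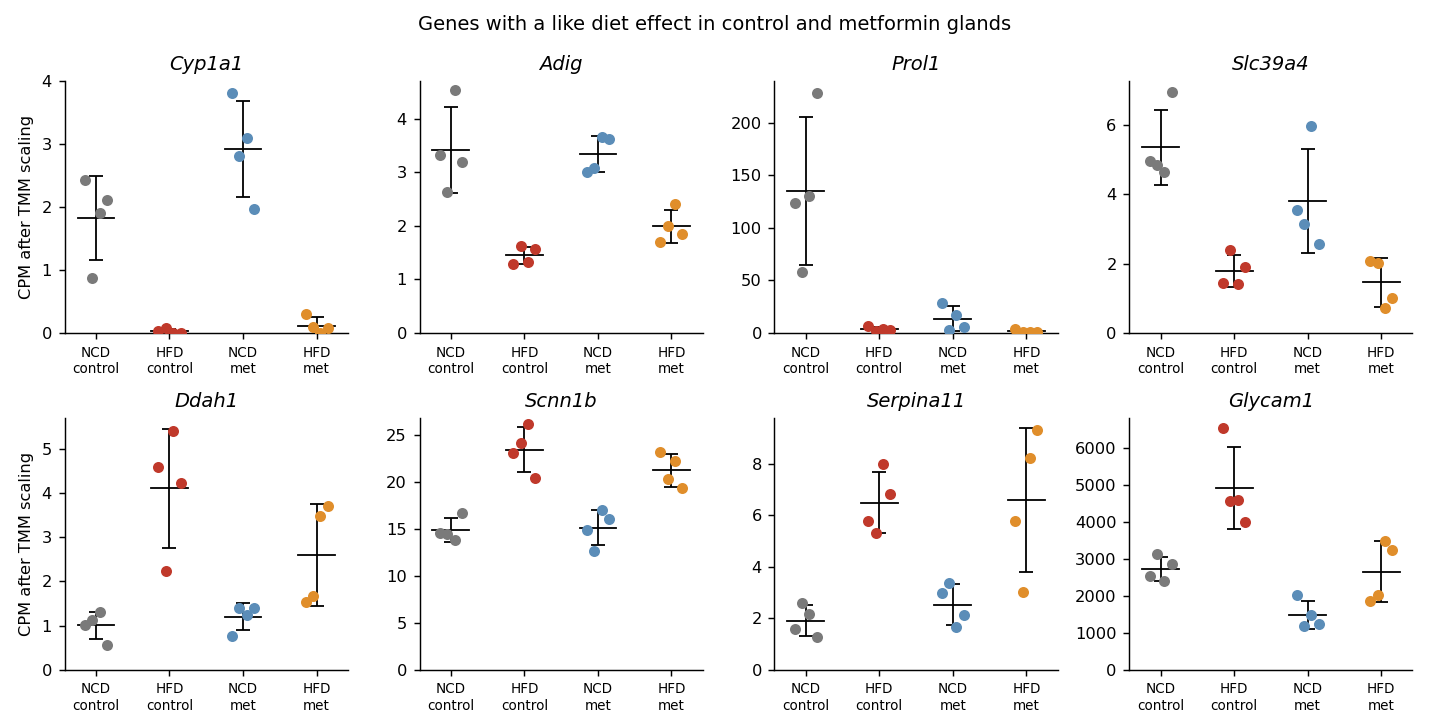
CPM after TMM scaling of 8 genes in each library (points), with the mean and SD of each group of 4 (lines and bars), "met" standing for metformin. Cyp1a1, Adig, Slc39a4, Ddah1 and Scnn1b show no overlap between the 8 HFD and 8 NCD libraries, while Prol1, Serpina11 and Glycam1 overlap across treatments.

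Milk protein genes took a larger share of the counts on HFD in both treatments. The share was 71.5 ± 1.18% in NCD control and 74.2 ± 0.99% in HFD control, and 71.0 ± 0.22% in NCD metformin and 74.0 ± 1.93% in HFD metformin (SD, n = 4). NCD libraries ran from 70.1 to 72.5% and HFD libraries from 72.3 to 76.7%, so the diets overlapped slightly. The difference was 2.88 points, 2.72 without and 3.03 with metformin (exact permutation test within treatments over 4900 arrangements, two-sided p = 0.000408, the smallest it can give). The share of the mitochondrial genome was lower on HFD by 0.458 points (same exact permutation test, p = 0.00327), with differences of -0.206 without and -0.709 with metformin. This share was 2.39 ± 0.23% in NCD control against 2.18 ± 0.18% in HFD control, and 3.51 ± 0.19% in NCD metformin against 2.80 ± 0.19% in HFD metformin (SD, n = 4). The control groups overlapped (2.18 to 2.71% on NCD, 1.97 to 2.37% on HFD). The metformin groups did not (3.24 to 3.67% on NCD, 2.57 to 3.01% on HFD). Gene by gene after TMM scaling, none of the 13 mitochondrially encoded genes was called. Their median log2 fold change was 0.02 without and -0.15 with metformin, and 4 of the 13 had the same sign in both treatments. The milk protein and mitochondrial shares are parts of a fixed total, so a larger milk protein share leaves less for other genes. In whole glands, fewer cells of a type and less RNA per cell cannot be told apart.

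**Figure D3:**
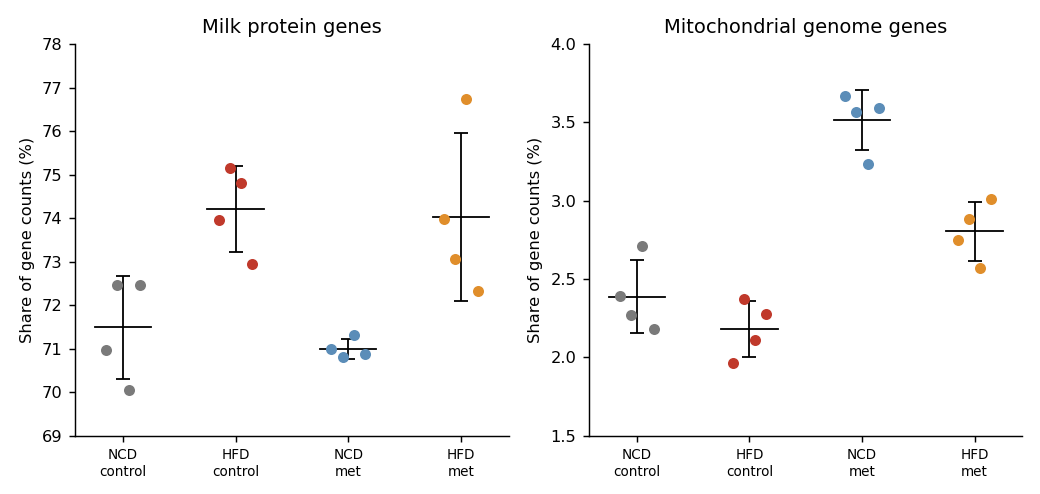
Share of gene counts (%) taken by milk protein genes (left) and by genes of the mitochondrial genome (right) in each library (points), with mean and SD of each group of 4 (lines and bars), "met" standing for metformin; the vertical axes do not start at 0. The milk protein share runs from 70.1 to 72.5% on NCD and from 72.3 to 76.7% on HFD.

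Of 19 tested milk protein genes 2 were called higher and 0 lower, beside 0.52% and 0.416% of all genes. Both of the 2 moved alike. The median of the Milk proteins list was 0.17, at 0.18 without and 0.20 with metformin, and -0.0044 when scaled by library size alone. Glycam1, a mucin-like milk glycoprotein, was at 2527, 3127, 2405 and 2849 CPM in NCD control and 6544, 4555, 4586 and 3987 in HFD control. With metformin it was at 2030, 1195, 1492 and 1224 CPM on NCD and 1862, 2029, 3476 and 3246 on HFD. Metformin libraries lay below the control libraries of the same diet, so the diets overlapped across treatments, and slightly between the metformin groups. The rise came to 0.85 without and 0.84 with metformin on the log2 scale (average 0.84 ± 0.15 SE, adjusted p = 0.0203, 95% interval of the difference -0.66 to 0.63). Mfge8, lactadherin of the milk fat globule membrane, was at 3568 to 4060 CPM in NCD control and 4796 to 6985 in HFD control, and at 2741 to 3499 in NCD metformin and 3586 to 4466 in HFD metformin (log2 fold change 0.39 ± 0.08 SE, adjusted p = 0.0384). The groups of each treatment did not overlap. The major milk proteins did not pass in the main fit. Csn1s1, another casein, was at 139800 to 174700 CPM on NCD and 169800 to 218200 on HFD, and Csn3, kappa-casein, at 29380 to 34780 and 33920 to 41350. In other settings Csn2 passed in 2 of 26, DESeq2 among them (adjusted p = 0.0181), and Wap in 1 of 26, which was DESeq2 (adjusted p = 0.0485). Csn2, beta-casein, was at 0.25 ± 0.07 (SE, adjusted p = 0.0735), Wap, whey acidic protein, at 0.31 ± 0.09 (adjusted p = 0.0957) and Lalba, alpha-lactalbumin, at -0.08 ± 0.10 (adjusted p = 0.746). Without NCD metformin 3 none of the 19 passed, without HFD metformin 4 there were 3, and without NCD control 2, NCD control 3, NCD metformin 1, NCD metformin 2, HFD control 3, HFD control 4, HFD metformin 1 or HFD metformin 3 there was 1.

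Glutathione transferases, which couple glutathione to reactive compounds, gave 4 lower and 0 higher genes of 18 tested, beside 0.416% and 0.52% of all genes. All 4 moved alike, and the median of the list was -0.25 (-0.27 without and -0.20 with metformin). Gsta3 was at 34.4, 38.4, 28.8 and 42.2 CPM in NCD control against 16.1, 16.6, 7.15 and 12.6 in HFD control. In metformin-treated glands it was at 16.8, 4.68, 10.8 and 8.96 CPM on NCD against 3.38, 1.61, 2.82 and 8.76 on HFD. The log2 fold change was -1.38 ± 0.30 (SE, adjusted p = 0.0436), and the metformin groups overlapped. Gsta4, which acts on products of lipid peroxidation, was at 1.07 to 1.97 CPM in NCD control against 0.506 to 0.893 in HFD control, and at 2.02 to 2.53 in NCD metformin against 0.868 to 1.21 in HFD metformin (-1.04 ± 0.17 SE, adjusted p = 0.0119), with no overlap within a treatment. Gstm2 (-0.85) and the membrane-bound Mgst1 (-0.43) also fell. Of 27 settings, the call was lost in 15 for Gsta3, 13 for Gstm2 and 4 for Mgst1, and in none for Gsta4. Gstm1 (-0.61, adjusted p = 0.0577) and Gstp1 (-0.29, adjusted p = 0.209) did not pass. These families hold near-identical genes that can share reads. The lower count in Glutathione transferases was 5 without NCD metformin 4, 2 without NCD metformin 1, NCD control 4, HFD control 1, HFD control 4, HFD metformin 1 or HFD metformin 3, and 1 without HFD control 3, HFD metformin 2 or NCD metformin 3. It was 2 with a term for the gap in title numbers and 1 in counts rebuilt from TPM.

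Akr1b8, Aldh2 and Paox, which belong to no list used here, fell alike. Akr1b8, an aldo-keto reductase, was at 3.52 to 5.22 CPM in NCD control against 1.01 to 1.5 in HFD control, and at 1.14 to 3.51 in NCD metformin against 0.716 to 2.36 in HFD metformin (-1.39 ± 0.26 SE, adjusted p = 0.0206). Aldh2, the mitochondrial aldehyde dehydrogenase, was at 95.4 to 135 CPM and 99.2 to 142 CPM in the NCD groups and at 72.3 to 81.2 and 70.5 to 88.6 in the HFD groups (-0.55 ± 0.09 SE, adjusted p = 0.0137), with no overlap. Paox, a polyamine oxidase, fell from 7.46 to 8.55 to 4.46 to 7.12 CPM without and from 10.5 to 12.6 to 6.62 to 7.49 CPM with metformin (-0.60 ± 0.08 SE, adjusted p = 0.00328). Within each treatment its diets did not overlap. Of 29 tested antioxidant and NRF2 target genes, 3 were called lower and 0 higher, beside 0.416% and 0.52% of all genes. Negative values were found for 24, beside 6267 of all 12506 genes, with a median of -0.20. The aldehyde oxidase Aox1 (-1.29 without and -0.67 with metformin) and Me1 moved alike, while Gclm, the modifier subunit of the enzyme that starts glutathione synthesis, did not (-0.49 and -0.09). For Antioxidant and NRF2 targets that count was 4 without NCD metformin 4, 1 without NCD metformin 2, NCD control 4, HFD metformin 4 or HFD control 4, and 0 without NCD control 2, NCD metformin 1, NCD metformin 3, HFD control 2, HFD control 3 or HFD metformin 2, and with the gap term or counts rebuilt from TPM. Nfe2l2, which encodes NRF2, was at 0.37 (adjusted p = 0.1), and Hmox1, another of its targets, at -0.51 (adjusted p = 0.154).

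Promoter windows of the members were searched for short motifs, since NRF2 and the aryl hydrocarbon receptor act through such motifs. Windows of 300 bases, from 250 before to 50 after the annotated start, were read from RefSeq on GRCm38.p6, and 63 of the 76 genes that moved alike had a window. They were searched on both strands for TGACNNNGC, the core of the antioxidant response element, for TNGCGTG, the core of the dioxin response element, and for TTCNNNGAA, the STAT motif, with N for any base. The antioxidant core was in 7 of 34 lower genes (20.6%: Gsta3, Me1, Mgst1, Pgd, Pon3, Prol1 and Vill) and 4 of 29 higher genes (13.8%), beside 13.99% of all 27025 genes with a window. The dioxin core was in 3 of 34 lower (8.8%) and 2 of 29 higher genes (6.9%), beside 5.84% of all genes, and the STAT motif in 3 of 34 (8.8%) and 3 of 29 (10.3%), beside 9.55%. These shares were not tested against those of all genes, and a part of these factors in the diet effect was not tested. A match is a description of letters and not a bound site. The windows of Cyp1a1, at chr9:57697363-57697662 (plus strand), of Gsta3, at chr1:21240335-21240634 (plus strand), of Me1, at chr9:86695865-86696164 (minus strand) 1 of the 2 windows of that gene, and of Glycam1, at chr15:103565032-103565331 (minus strand), are shown because they stand for the largest fall, the transferases, the NADPH enzymes and the milk proteins. Capitals mark any match, read 5′ to 3′ on the gene's strand. Gsta3 and Me1 hold the antioxidant core, Glycam1 the STAT motif, and the Cyp1a1 window none of the 3. Sequence beyond the 300 bases was not searched, so a window without a match does not show that the gene lacks the motif.
Cyp1a1: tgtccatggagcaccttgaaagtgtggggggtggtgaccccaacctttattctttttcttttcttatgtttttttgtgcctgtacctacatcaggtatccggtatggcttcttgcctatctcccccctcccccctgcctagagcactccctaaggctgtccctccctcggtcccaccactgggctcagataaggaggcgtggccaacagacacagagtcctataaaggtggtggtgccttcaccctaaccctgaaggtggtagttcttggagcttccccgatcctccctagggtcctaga
Gsta3: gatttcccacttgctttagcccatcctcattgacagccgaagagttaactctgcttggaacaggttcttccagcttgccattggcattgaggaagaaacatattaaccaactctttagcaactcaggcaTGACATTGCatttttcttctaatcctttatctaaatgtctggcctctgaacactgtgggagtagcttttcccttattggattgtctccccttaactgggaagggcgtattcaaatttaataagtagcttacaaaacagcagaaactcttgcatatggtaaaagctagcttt
Me1: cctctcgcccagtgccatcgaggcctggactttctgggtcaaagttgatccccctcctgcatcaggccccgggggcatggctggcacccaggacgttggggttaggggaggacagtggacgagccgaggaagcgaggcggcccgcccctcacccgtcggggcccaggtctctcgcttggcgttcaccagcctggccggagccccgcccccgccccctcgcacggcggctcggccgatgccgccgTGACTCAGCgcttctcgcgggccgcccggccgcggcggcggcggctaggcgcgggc
Glycam1: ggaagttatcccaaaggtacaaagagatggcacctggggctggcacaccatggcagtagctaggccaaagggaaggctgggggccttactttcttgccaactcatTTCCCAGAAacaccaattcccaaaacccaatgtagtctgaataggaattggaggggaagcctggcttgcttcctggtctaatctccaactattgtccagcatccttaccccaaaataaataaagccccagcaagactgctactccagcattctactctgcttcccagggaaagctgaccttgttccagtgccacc

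Of 10 tested genes of the pentose phosphate pathway and NADPH supply, 3 were called lower and 0 higher, beside 0.416% and 0.52% of all genes. This list was put together after values had been seen. The same sign in both treatments was found for 8 of the 10 genes, beside 7076 of all 12506 genes. Pgd, the second dehydrogenase of the pentose phosphate pathway, was at 126, 117, 123 and 133 CPM in NCD control against 109.7, 98.6, 84.7 and 91.7 in HFD control, and at 137, 120.3, 163 and 127 in NCD metformin against 92.7, 86.8, 92.2 and 103 in HFD metformin. Tkt, transketolase of the same pathway, was at 267 to 310.5 CPM against 177 to 241 without metformin and 279 to 326 against 232 to 243 with it. For both genes every HFD library was below every NCD library. The log2 fold changes were -0.46 ± 0.08 (SE, adjusted p = 0.0121, interval of the difference -0.49 to 0.15) for Pgd and -0.41 ± 0.07 (SE, adjusted p = 0.0134, -0.19 to 0.39) for Tkt. Me1, the cytosolic malic enzyme, fell less and with overlap in the control groups, from 498 to 597 to 419.8 to 539.6 CPM, and from 533 to 659.6 to 405 to 473 CPM with metformin (-0.34 ± 0.07 SE, adjusted p = 0.0411). The Me1 call was lost in 16 of 27 settings, while the calls of Pgd and Tkt were kept in all. These were the 3 called genes. All 10 members were negative for the averaged effect, beside 6267 of all 12506 genes, and the median was -0.29. G6pdx, the first enzyme of the pathway, was at -0.30 (adjusted p = 0.387).

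The same 3 genes were the only called ones, all lower, of 26 tested genes of de novo fatty acid synthesis, whose median was -0.13 (0.03 without and -0.37 with metformin). That count was 6 without NCD control 1 and 2 in the other leave-one-out fits, except 4 without HFD control 1 or NCD metformin 4 and 3 without HFD metformin 3 or HFD control 4. The main enzymes of the pathway did not pass, and 3 of them were positive without and negative with metformin. Fasn, fatty acid synthase, was at 0.37 without and -0.42 with metformin, Acaca, acetyl-CoA carboxylase, at 0.49 and -0.05, and Acly, ATP citrate lyase, at 0.14 and -0.35. Scd1, which desaturates stearate, was lower in both (-0.47 and -0.79) with an averaged adjusted p of 0.0613. It passed in 4 of 27 other settings, DESeq2 among them (adjusted p = 0.00329). Of 26 tested genes of fatty acid uptake and triglyceride synthesis none was called, with Cd36 at 0.26 ± 0.07 (SE, adjusted p = 0.0757) and Lpl at 0.18 ± 0.10 (adjusted p = 0.383). Cd36 passed in 1 of 27 other settings, which was DESeq2 (adjusted p = 0.0161). Xdh, of the fat globule membrane, was at 0.28 ± 0.10 (adjusted p = 0.169).

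Cholesterol synthesis genes were lower on HFD mainly in the comparison between the metformin groups. Of 23 tested, 3 were called lower and 0 higher for the averaged effect, beside 0.416% and 0.52% of all genes. Negative values were found for 21, but the median was -0.10 without and -0.73 with metformin. Only Tm7sf2, a sterol reductase late in the pathway, moved alike. Its level was 15.9 to 19.9 CPM in NCD control against 11.5 to 14.2 in HFD control and 15.5 to 18.8 in NCD metformin against 9.29 to 13.3 in HFD metformin (-0.52 ± 0.08 SE, adjusted p = 0.0119), with no overlap. Sqle, squalene epoxidase, was at -0.19 without and -0.78 with metformin. Its mean was 44.6 CPM in NCD control and 39.1 in HFD control, and 66.9 in NCD metformin and 38.9 in HFD metformin. The HFD groups were thus at a like level, and the NCD metformin group was the highest. The lower count in Cholesterol synthesis was 7 without NCD control 1, 5 without NCD metformin 4 and 1 without NCD metformin 1, HFD control 3, HFD metformin 2 or NCD metformin 3, and 0 in counts rebuilt from TPM. The difference between treatments passed for none of these genes after adjustment.

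**Figure D4:**
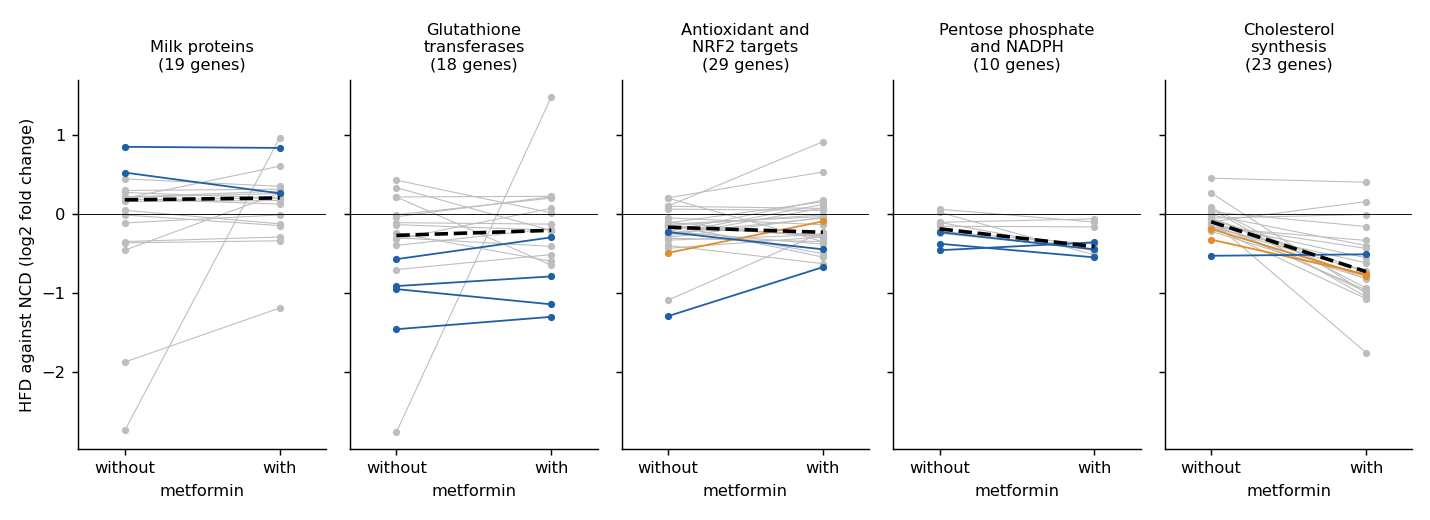
Diet effect (log2 fold change, HFD against NCD) of each tested member of 5 gene lists, without metformin (left) and with metformin (right) in each panel, joined by a line. Blue lines are called genes that moved alike, orange lines called genes that did not, grey lines genes that were not called, and the dashed black line joins the list medians; the median of the cholesterol list goes from -0.10 to -0.73, that of the milk proteins from 0.18 to 0.20.

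Bdh1, which interconverts ketone bodies in mitochondria, was the only called gene of 8 tested for ketone metabolism. It fell from 34.6 to 43 to 23.1 to 31.9 CPM without metformin and from 58.4 to 65.5 to 39.8 to 47.9 CPM with it (-0.49 ± 0.08 SE, adjusted p = 0.0119). The diets did not overlap within a treatment. Pkm, pyruvate kinase, was the only called gene of 19 tested for glycolysis (-0.51 ± 0.11 SE, adjusted p = 0.0446), and 16 of the 19 were negative, with a median of -0.14. The Pkm call was lost in 15 of 27 settings, and with a library left out it held only without NCD control 1, NCD metformin 2 or HFD control 1. Of 37 genes of fatty acid oxidation only Cpt1a, the carnitine transferase that admits fatty acids to mitochondria, passed (0.75 ± 0.16 SE, adjusted p = 0.0436), and it did not move alike (0.35 without and 1.15 with metformin). The Cpt1a call was lost in 16 of 27 settings. For Fatty acid oxidation and PPAR targets the higher count was 2 without NCD control 1 or HFD control 1, 1 without NCD control 4 or NCD metformin 4, 0 without any other library, with the gap term or in counts rebuilt from TPM, and 4 over title numbers from 14 up. Pdk4, a target of PPAR alpha, did not pass (0.64, adjusted p = 0.359).

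C3, Orm1, Chil1 and Gsdma were among the 12 largest falls that were alike at a mean of at least 1 CPM. C3, the central complement component, was at 73.8, 75.5, 159 and 84.2 CPM in NCD control and 20.7, 54.9, 33.1 and 51.6 in HFD control. In metformin-treated glands it was at 42.6, 105, 158 and 76.1 CPM on NCD and 33.7, 45.5, 16.6 and 19.4 on HFD. The log2 fold change was -1.51 ± 0.29 (SE, adjusted p = 0.0261), the metformin groups did overlap, and the call was lost in 4 of 27 other settings, among them without HFD control 3 or NCD metformin 3. Orm1, an acute-phase plasma glycoprotein, was at 39.7 to 78.4 CPM against 8.15 to 26.7 without metformin and 11.3 to 66.5 against 7.37 to 25.7 with it (-1.57 ± 0.33 SE, adjusted p = 0.039), and its call was lost in 14 of 27 other settings. Chil1, a chitinase-like glycoprotein, fell from 3.97 to 6.61 to 1.13 to 2.88 CPM without and from 0.97 to 2.5 to 0.671 to 0.923 CPM with metformin (-1.24 ± 0.22 SE, adjusted p = 0.0146). The diets did not overlap within a treatment. Gsdma, of the pore-forming gasdermins, was at -1.33 ± 0.26 (SE, adjusted p = 0.0261). Orm1 and Chil1 were the 2 called lower genes of 26 tested for involution and STAT3, whose median was 0.04, and Lifr, a receptor upstream of STAT3, was the called higher one. Macrophage and monocyte markers (19 of 19 tested, median 0.01, none called) summed to 273 to 359 CPM in NCD control, 209 to 265 in NCD metformin, 269 to 315 in HFD control and 235 to 314 in HFD metformin. Of 10 neutrophil markers 3 were tested and of 12 T cell markers 3, none of them called.

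Tapbpl, which edits peptides on MHC class I molecules, fell from 17.3 to 18.5 to 12.9 to 14.4 CPM and, with metformin, from 17.4 to 22.8 to 13.9 to 16.7 CPM, with no overlap (-0.41 ± 0.07 SE, adjusted p = 0.0119, interval of the difference -0.28 to 0.28). Rasl11b, a Ras-like GTPase, was at 6.06, 4.78, 4.79 and 11.8 CPM in NCD control and 0.992, 3.54, 1.83 and 1.79 in HFD control, and at 3.51, 2.94, 10.7 and 8.87 in NCD metformin and 1.08, 1.54, 1.48 and 0.218 in HFD metformin. Its log2 fold change was -2.18 ± 0.38 (SE, adjusted p = 0.0146), with no overlap within a treatment. Vill, a relative of the actin-binding villin, was at -1.25 without and -1.13 with metformin (adjusted p = 0.0119 for the average of -1.19). Bcl2l15, a BCL2 family gene, was lower in every HFD library (-0.58 ± 0.11 SE, adjusted p = 0.0261).

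Among higher genes, Ddah1 and Serpina11 were the largest that kept their call in all 27 settings and had a mean above 1 CPM. Ddah1, which breaks down the methylated arginines that inhibit nitric oxide synthases, was at 1.01, 1.14, 1.3 and 0.567 CPM in NCD control and 4.59, 2.23, 5.41 and 4.24 in HFD control. With metformin it was at 0.762, 1.4, 1.23 and 1.41 CPM on NCD and 1.54, 1.67, 3.49 and 3.71 on HFD. No HFD library overlapped an NCD library. The log2 fold change was 1.58 ± 0.25 (SE, adjusted p = 0.0102), 2.04 without and 1.12 with metformin, and the interval of the difference was -1.95 to 0.11. Serpina11, of the serpin family, was at 1.59, 2.6, 2.16 and 1.25 CPM in NCD control and 5.79, 5.33, 8 and 6.81 in HFD control. With metformin it was at 2.97, 3.38, 1.65 and 2.11 CPM on NCD and 5.77, 3.02, 8.23 and 9.3 on HFD (1.58 ± 0.22 SE, adjusted p = 0.0046). The lowest HFD metformin library lay below the highest NCD metformin library, and the control groups did not overlap.

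Cilp, Vcan and Itgav rose alike, with wider spread. Cilp, a matrix protein of cartilage and other connective tissue, was at 2.19, 2.7, 2.19 and 2.21 CPM in NCD control and 2.41, 4.37, 12.6 and 3.35 in HFD control, and at 0.648, 0.435, 1.05 and 0.539 in NCD metformin and 2.08, 1.09, 1.57 and 5.96 in HFD metformin. The largest value was in HFD control 3 and the call was lost in 20 of 27 other settings (log2 fold change 1.66 ± 0.38 SE, adjusted p = 0.0484). Vcan, the proteoglycan versican, was at 1.13 ± 0.24 (SE, adjusted p = 0.0387), its call lost in 14, and Itgav, integrin alpha V, at 1.01 ± 0.20 (SE, adjusted p = 0.0321), lost in 8. Vcan was the only called gene of 29 tested for collagens and matrix, whose median was 0.12 (0.26 without and -0.08 with metformin). Of these 29, 13 had the same sign in both treatments, beside 7076 of all 12506 genes. When a library was left out, the Vcan call held only without NCD control 3, NCD metformin 4, HFD control 2 or HFD metformin 1. Fibroblast markers (13 of 13 tested, median 0.08, none called) summed to 549 to 842 CPM in NCD control, 466 to 803 in NCD metformin, 496 to 752 in HFD control and 419 to 672 in HFD metformin.

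Signalling and regulatory genes that rose alike included Adcy2, an adenylyl cyclase, at 2.03 without and 0.98 with metformin (adjusted p = 0.0342 for the average). Its interval of the difference was -2.34 to 0.25, and its control groups overlapped. Wnt9a, a Wnt ligand, was at 0.59 and 1.16 (adjusted p = 0.0384). The Adcy2 and Wnt9a calls were each lost in 12 of 27 settings. Klf10, a transcription factor induced by TGF-beta, was at 2 to 4.95 CPM in NCD control and 4.93 to 11.7 in HFD control, and at 2.4 to 2.81 in NCD metformin and 3.85 to 7.85 in HFD metformin (1.04 ± 0.22 SE, adjusted p = 0.0384). It was the only called one of 27 tested immediate early genes, whose median was 0.08. That call was lost without NCD control 2, NCD control 4, NCD metformin 1, NCD metformin 2, NCD metformin 3, HFD control 3, HFD control 4, HFD metformin 3 or HFD metformin 4. Far1, which makes the fatty alcohols of ether lipids, rose by 0.66 and 0.86 (adjusted p = 0.0203), and Fam189a2 by 0.66 and 1.37 (adjusted p = 0.0146). Man2b1, the lysosomal alpha-mannosidase, and Pdgfd, a platelet-derived growth factor, were higher in every HFD library, at 0.43 and 0.67. Derl3, which acts in removal of misfolded proteins from the endoplasmic reticulum and is held in the plasma cell marker list, rose by 0.84 and 0.97 (adjusted p = 0.0238), while 12 of the 13 tested B and plasma cell markers were negative, with a median of -0.41. The Derl3 call was lost without HFD control 3 or NCD metformin 3.

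Adig, adipogenin, was the only called gene of 18 tested adipocyte markers. It was at 3.32, 2.63, 4.54 and 3.19 CPM in NCD control and 1.29, 1.61, 1.33 and 1.56 in HFD control, and at 3.01, 3.08, 3.65 and 3.61 in NCD metformin and 1.69, 1.99, 2.42 and 1.85 in HFD metformin. The diets did not overlap, and the log2 fold change was -0.997 ± 0.129 (SE, adjusted p = 0.00222). The 18 markers summed to 1466 to 2322 CPM in NCD control, 1777 to 2199 in NCD metformin, 1299 to 1680 in HFD control and 1361 to 2325 in HFD metformin. Their median was -0.41, with 14 negative, and was 0.10 without NCD control 3, the library with the high muscle sum, while the Adig effect lay between -1.06 and -0.92 over the fits that left out a library. Adipoq, adiponectin, ran from 6.84 to 75.5 CPM in NCD control, where replicate 3 was highest, and from 10.6 to 32.4 in HFD control (-0.48 ± 0.48 SE, adjusted p = 0.65). Lep, leptin, was higher on average (0.97 ± 0.34 SE) but did not pass (adjusted p = 0.164). The part of fat content in the Adig result was not tested. The epithelial markers Krt18 (luminal, 0.30, adjusted p = 0.154) and Acta2 (myoepithelial, 0.15, adjusted p = 0.724) did not pass, nor did any of 18 luminal or 12 myoepithelial markers tested. Acta2 turned to -0.002 when scaled by library size alone.

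**Figure D5:**
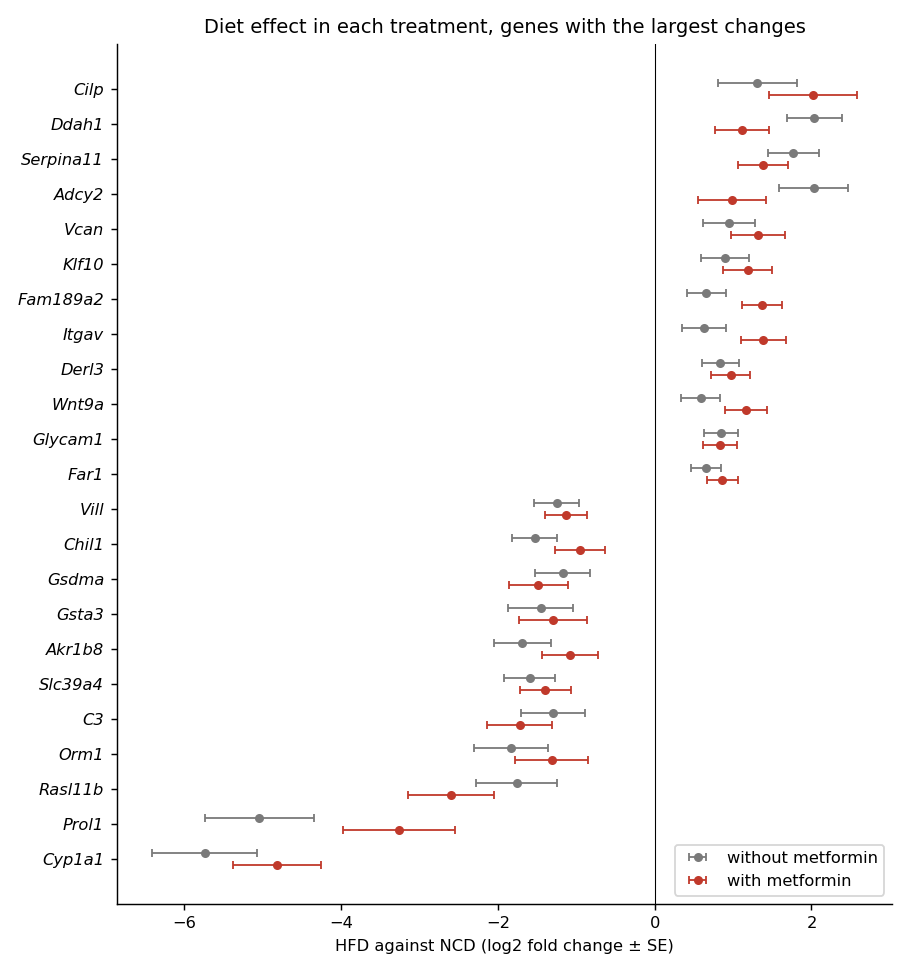
Diet effect (log2 fold change with SE bars, HFD against NCD) without metformin (grey) and with metformin (red) for 12 genes with the largest rises and 11 with the largest falls among those that moved alike with a mean of at least 1 CPM. The bars of the pair overlap for Glycam1 (0.85 and 0.84), while the estimates lie further apart for Prol1 (-5.04 and -3.26).

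The other 41 called genes did not meet the rule for moving alike, 33 of them higher and 8 lower. Of these 33, 30 had the larger effect with metformin. Unequal effects follow in part from the rule that set these genes apart and are a description. An unadjusted p under 0.05 for the difference was found for 30 of the 41. The rest failed only because an effect within a treatment had an unadjusted p of 0.05 or more, so they are not shown to differ between treatments. Eda2r, a receptor of the TNF family and a p53 target, was the clearest, at 1.82 to 2.48 CPM in NCD control and 1.82 to 2.88 in HFD control against 0.316 to 0.493 in NCD metformin and 1.27 to 2.89 in HFD metformin. Its diet effect was 0.06 without and 2.28 with metformin (95% interval of the difference 1.40 to 3.05). Grb7, an adaptor of receptor tyrosine kinases (0.20 and 1.06), Lifr (0.10 and 0.91), Arhgef3 (0.19 and 1.10), and Foxo3 (0.26 and 1.24) showed the same form, as did Zfp7 (95% interval of the difference 0.49 to 1.36). Klf11 passed in all 27 settings, at 0.69 and 1.66. Renbp, an epimerase of the sialic acid pathway, went the other way, at -1.08 without and -0.10 with metformin. None of these differences passed after adjustment over all genes.

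Pathway lists with no called gene for the averaged effect included milk fat globule and lactose synthesis (18 tested), the integrated stress response (27, with 23 positive and a median of 0.22), aminoacyl-tRNA synthetases (20), endoplasmic reticulum folding (23), the mitochondrially encoded genes (13), nuclear respiratory chain subunits (71, with 59 negative and a median of -0.09), cytosolic ribosomal proteins (53), circadian clock genes (19), interferon response genes (27), heat shock proteins (20), amino acid transporters (18) and cell cycle genes (29, at -0.03 without and 0.82 with metformin). Prolactin, STAT5 and hormone signalling had 1 of 21 called higher, Foxo3, whose call was lost in 13 of 27 settings, and p53 targets 1 of 21, Eda2r, lost in 1. Muscle markers had a median of -2.50, at -6.71 without and 1.76 with metformin, with none called. Endothelial, red blood cell, nerve and keratinocyte markers held no called gene either. Beside these sign counts, 6239 of all 12506 genes were positive and 6267 negative for the averaged effect.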

How the data were processed

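The deposited files hold, per the file headers, an estimated count (NumReads) and a TPM value per transcript, and the submitters' processing notes name Salmon 1.3.0, DESeq2 1.28.1 and GRCm38.p6. The authors' TPM, scaled by effective coding length, entered only alternatives. The sources used here do not name strand or bias options. Estimated counts of 57452 of 58204 transcripts (the other 752 held 0.165 to 0.218% of counts) were summed to 22196 GENCODE M21 genes and rounded. Lengths matched coding sequences within 3 bases for 56929 of 56929 transcripts compared, so untranslated regions were not counted, and overlapping antisense genes and near-identical families are uncertain.

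Genes kept by filterByExpr (12506) were fitted with edgeR 4.0.16 (R 4.3.3) with 4 group means and TMM scaling, leaving 12 residual degrees of freedom, and called at a Benjamini-Hochberg adjusted p under 0.05, two-sided. Levels are CPM after TMM scaling, in order of replicate number. Members, lists and rules were chosen with earlier results of these data known. Named genes are up to 12 with the largest rise and fall among those alike with a mean of at least 1 CPM, up to 6 per direction of lowest p, up to 4 per list, up to 6 not alike, and a fixed set of milk, lipid and marker genes. Floors of 3 counts (0.0766 to 0.347 CPM) and intervals cover counting error only. On simulated counts over 12397 tested genes, 97 of 100 genes changed alike by 1 on the log2 scale were called and 90 classed as alike. Of 100 changed only with metformin, 34 were called for the averaged effect and 2 classed as alike. Changes were placed only in well-counted genes, and all genes had the same spread. These shares therefore do not carry over to smaller changes, low counts or deviant libraries. Alternatives were other scalings, filters and tools (limma 3.58.1, DESeq2 1.42.0), a term for the gap in title numbers, and leaving out each library. Those on title-number ranges, on the count of genes alike and on lists were added after seeing the data. Of 120 library pairs the lowest chi-square per degree of freedom was 13.4, so none was counted as a repeat. Some genes that the rule names are not reported here.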

Additional observations from a re-analysis of the deposited data

Results flagged for a closer look

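In 13 of 288 groups of 4 libraries examined (70 genes of the text and 2 shares, 4.5%) a library lay far from the other 3 of its group, where chance gives about 1 in 20. Among genes that fell on HFD, HFD metformin 1 had 3.85 CPM of Prol1 against 0.80 to 0.98 in the others, NCD control 4 had 6.95 CPM of Slc39a4 against 4.63 to 4.96, and HFD metformin 4 had 2.36 CPM of Akr1b8 against 0.716 to 0.923. NCD control 3 had 158.7 CPM of C3 against 73.8 to 84.2, HFD metformin 3 had 0.313 CPM of Gsdma against 0.923 to 0.981, and NCD metformin 3 had 34.8 CPM of Bcl2l15 against 23.8 to 25.3. Among genes that rose, NCD control 2 had 2.70 CPM of Cilp against 2.19 to 2.21, HFD control 4 had 24.7 CPM of Itgav against 8.86 to 10.5, HFD control 1 had 4.61 CPM of Cpt1a against 7.25 to 7.53, and NCD control 4 had 90.4 CPM of Man2b1 against 109.9 to 112.4. Of genes that did not pass, HFD control 4 had 355.7 CPM of Scd1 against 168.3 to 187.9. NCD control 3 had 75.5 CPM of Adipoq against 6.84 to 9.11, and NCD metformin 1 had 17.8 CPM against 42.0 to 46.9.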

How the results depend on the processing

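For the diet effect averaged over treatments, against 117 calls, the count was 1595 with scaling by library size alone, 458 with DESeq2, 233 with limma-voom, 64 in an additive fit and 35 (13 higher, 22 lower) in counts rebuilt from TPM, and 41 over title numbers from 14 up and 0 over those up to 10 (692 genes at an unadjusted p under 0.05). It was 28 to 180 when a library was left out. For the diet effect without metformin, against 8, it was 39, 71 and 22 with the first 3 of these settings and 5 with a term for the gap in title numbers, and 2 to 13 when a library was left out. For the diet effect with metformin, against 295, it was 641 by library size, 775 with DESeq2, 3 in counts rebuilt from TPM, 91 when fitted on the 2 groups alone, and 3 to 384 when a library was left out. DESeq2 called 23 genes for the difference, 19 higher and 4 lower, and leaving out a library gave 0 to 1. The count of genes that move alike was 751 by library size (14 higher and 737 lower), 174 with DESeq2, 31 in counts rebuilt from TPM and 24 to 92 when a library was left out, against 76. With DESeq2 all 76 stayed called. The milk protein share differed by 2.42 to 3.16 points and the mitochondrial share by -0.504 to -0.404 when a library was left out, and both passed in each such fit. Some genes that were not called changed sign: Fasn was at 0.34 over title numbers up to 10, 0.082 without NCD control 4, 0.01 without HFD metformin 3 and 0.06 without NCD metformin 3, from a low of -0.11 when a library was left out; Acly at 0.10 over numbers up to 10; Adipoq at 0.30 without NCD control 3, from a low of -0.66; and Acta2 at -0.002 by library size and -0.30 over numbers up to 10. The cause was not tested. Of the 117 calls, 51 ended in more than 13 of the 27 settings. No paired analysis was possible because the labels give no replicate numbers shared between groups. Depth limits genes near the floor, such as Cyp1a1 on HFD.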
